A study of Rattus norvegicus with 16 samples.

Results

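Cartilage and bone matrix genes that are also made in arteries were followed in the ageing rat aorta: Spp1, Mgp, Ibsp, Bglap, Alpl, Comp and Postn. They were chosen for their link to calcification of vessels, and with their difference between the oldest and youngest rats already known. All probe sets carrying 1 of these 7 gene symbols in the platform annotation were taken, which gave 8 of the 8799 probe sets on the array, and 7 of the 4736 genes that had a probe set with a single symbol. Alpl had 2 probe sets and the other genes 1 each. Of the 8 probe sets, 6 (5 genes) were bright enough to be tested, while those of Ibsp and Bglap lay just below the lowest mean tested, 7.31 on the log2 scale, with means of 7.30 and 7.19 over all arrays.

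The aorta pieces came from rats of 3, 6, 15 and 28 months, with 4 arrays per age and 1 rat per array. Arrays with the same replicate number, 1 per age, are called a run below. Replicates 3 and 4 shared a time of hybridisation and differed in station. Counts of runs describe the genes, since their share over all probe sets was not computed. The labels give neither strain nor sex, and they name no treatment or mutation for any group. Each rat gave 1 cm of the descending thoracic aorta, whose RNA was put on an Affymetrix rat expression array. The question, by the title of the study, is how disease of the aortic wall develops with age.

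Arteries keep mineral out of their wall by an active balance. Pyrophosphate and the secreted proteins osteopontin and matrix Gla protein restrain the growth of hydroxyapatite crystals, while alkaline phosphatase removes pyrophosphate, and bone sialoprotein can seed crystals. Osteocalcin and bone sialoprotein are classed as products of bone-forming cells, and Comp and periostin as matrix proteins of cartilage, tendon, periosteum and injured vessels.

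The promoters of the bone genes that were higher at 28 months (Spp1, Ibsp), of the osteoblast gene that was not (Bglap) and of the matrix genes Comp and Postn are shown to let their sequence be set beside their levels. They are RefSeq sequences of the rat assembly GRCr8, 5′ to 3′ on the strand of the gene, from 250 bases before to 50 bases after the annotated start. A promoter was at hand for 6 of the 7 genes, not for Mgp. Spp1 lies at chr14:5619755-5620054 on the minus strand, Ibsp at chr14:5757193-5757492 on the minus strand, Bglap at chr2:176137269-176137568 on the minus strand, Comp at chr16:19089499-19089798 on the minus strand and Postn at chr2:140677811-140678110 on the plus strand. Capitals mark TATAAA, the CCAAT box and, for RUNX proteins, either the core TGTGGT or its variant TGCGGT. All were searched on both strands, and a match on the opposite strand is capitalised as it reads here.
Spp1: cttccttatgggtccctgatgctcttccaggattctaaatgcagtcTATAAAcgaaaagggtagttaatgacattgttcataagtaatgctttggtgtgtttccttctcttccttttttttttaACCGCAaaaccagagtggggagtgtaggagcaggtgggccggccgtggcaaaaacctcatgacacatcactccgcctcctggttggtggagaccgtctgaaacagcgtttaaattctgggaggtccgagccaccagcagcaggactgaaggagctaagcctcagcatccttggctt
Ibsp: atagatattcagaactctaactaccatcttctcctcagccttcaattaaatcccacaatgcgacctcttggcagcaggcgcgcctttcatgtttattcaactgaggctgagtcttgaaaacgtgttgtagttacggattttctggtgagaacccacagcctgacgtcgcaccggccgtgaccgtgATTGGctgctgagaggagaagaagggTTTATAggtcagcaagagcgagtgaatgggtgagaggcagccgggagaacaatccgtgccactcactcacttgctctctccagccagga
Bglap: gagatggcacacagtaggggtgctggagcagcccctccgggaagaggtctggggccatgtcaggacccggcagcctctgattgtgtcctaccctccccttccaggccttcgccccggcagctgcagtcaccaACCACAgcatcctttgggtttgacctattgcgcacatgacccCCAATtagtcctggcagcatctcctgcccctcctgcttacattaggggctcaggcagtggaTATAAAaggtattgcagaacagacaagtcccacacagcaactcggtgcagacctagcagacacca
Comp: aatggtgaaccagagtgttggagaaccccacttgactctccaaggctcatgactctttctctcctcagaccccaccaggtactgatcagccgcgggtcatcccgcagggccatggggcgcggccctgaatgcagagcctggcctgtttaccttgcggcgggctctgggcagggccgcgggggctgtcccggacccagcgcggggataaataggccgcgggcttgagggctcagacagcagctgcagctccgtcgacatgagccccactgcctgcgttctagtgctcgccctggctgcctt
Postn: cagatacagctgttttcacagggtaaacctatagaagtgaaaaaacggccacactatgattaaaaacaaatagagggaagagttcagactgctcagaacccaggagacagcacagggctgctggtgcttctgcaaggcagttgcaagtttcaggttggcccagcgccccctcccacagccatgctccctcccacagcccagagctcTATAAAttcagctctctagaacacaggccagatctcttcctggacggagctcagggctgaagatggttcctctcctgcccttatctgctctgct

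Of all 33469 promoters of the same length, 14.2% held TATAAA and 37.5% held CCAAT on either strand, while 17.3% held the RUNX core and 6.39% its variant. Among the 6 promoters, TATAAA was found in 4 (Spp1, Ibsp, Bglap and Postn), CCAAT in Ibsp and Bglap, the RUNX core in Bglap and its variant in Spp1. The TATAAA match began at -204 from the annotated start in Spp1, far from it, at -44 in Postn and at -15 in Bglap. In Ibsp the TATAAA match and the CCAAT match both ran on the opposite strand, at -39 and -65 from the annotated start. The inverted arrangement of both boxes is a known property of the rat bone sialoprotein promoter. The AP-1 motif TGANTCA was found in none of the 6 (7.33% of all promoters) and the SMAD motif CAGAC in 5 of them (50.1%). RUNX proteins are the bone and cartilage regulators that bind this core. The match in Bglap, whose level did not separate 28 from 3 months, and the variant in Spp1, whose level did, are a description of letters only.

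Across the 4 ages, 5 of the 8 probe sets (Spp1, Ibsp, Comp, Postn and Mgp) had all 4 arrays at 28 months above all 4 arrays at 3 months. The same was true of 6.78% of all 8740 probe sets other than controls. These 5 also had all 4 arrays at 28 months above all 4 at 6 months, as did 7.15% of all probe sets. The genes were proposed with this contrast known, so the count describes them and no test is given for it. The differences between the means at 28 and 3 months ran from +0.41 for Mgp to +2.58 for Comp among these 5 genes, while Alpl and Bglap did not separate. Over all 8 probe sets the median difference was 1.06 on the log2 scale, against 0.01 over all probe sets.

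**Figure D1:**
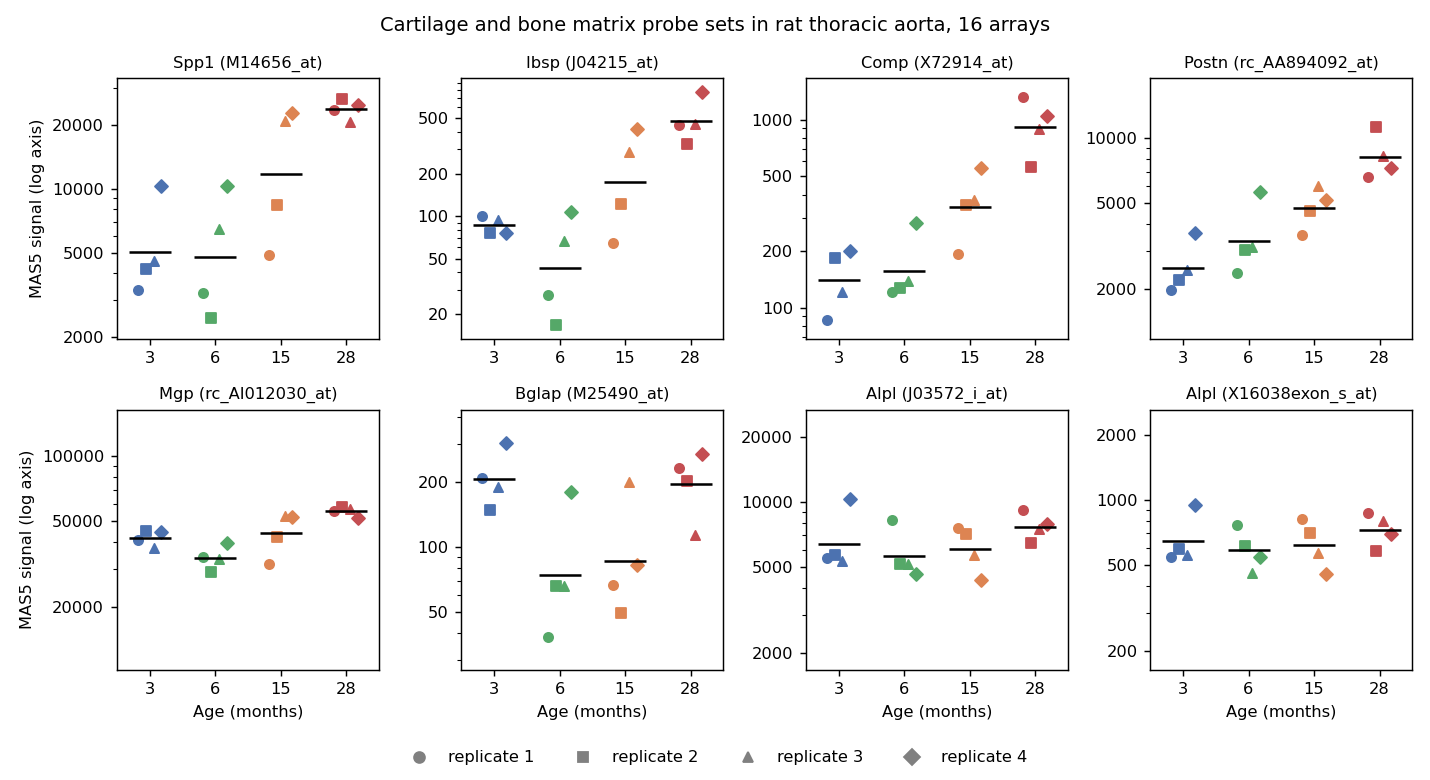
MAS5 signal (vertical, log axis) of the 8 probe sets at 3, 6, 15 and 28 months (horizontal), with 1 marker per array, its shape giving the replicate number, and a black line at the geometric mean of each age. Spp1, Ibsp, Comp, Postn and Mgp have all 4 arrays at 28 months above all 4 at 3 months, and Bglap and both probe sets of Alpl do not.

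Spp1 encodes osteopontin, a phosphorylated glycoprotein that binds integrins and CD44 and inhibits crystal growth. Its signals were 3345, 4170, 4546 and 10288 on replicates 1 to 4 at 3 months and 3209, 2454, 6487 and 10245 at 6 months. They were 4846, 8342, 20877 and 22689 at 15 months and 23599, 26489, 20551 and 24864 at 28 months. The oldest rats were thus uniformly high, whereas at 15 months replicates 3 and 4 reached the level of the oldest rats and replicates 1 and 2 stayed within the range of the younger ages. On the log2 scale the means at the 4 ages were 12.31 ± 0.71, 12.23 ± 0.94, 13.52 ± 1.07 and 14.54 ± 0.16 in order of age (SD, n = 4 each, as for the means below). The difference between 28 and 3 months was 2.23 (SE 0.50), or 4.69-fold. The spread between rats was smallest at 28 months and largest at 15 months.

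Mgp encodes matrix Gla protein, the vitamin K-dependent inhibitor of calcification that smooth muscle cells and chondrocytes secrete. It was among the brightest probe sets of the array at every age. Its signals were 40959, 45017, 37436 and 44757 at 3 months and 33972, 29028, 33475 and 39737 at 6 months. They were 31786, 42370, 52992 and 52033 at 15 months and 55929, 57996, 56753 and 51832 at 28 months. All 4 arrays at 28 months lay above those at 3 and at 6 months, but the range at 15 months overlapped every other age. The mean was 15.36 ± 0.13, 15.05 ± 0.19, 15.42 ± 0.34 and 15.76 ± 0.07 at the 4 ages, and 28 against 3 months differed by 0.41 (SE 0.17), or 1.33-fold. The difference between 6 and 3 months was negative in all 4 runs, at -0.31 (SE 0.17).

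Ibsp encodes bone sialoprotein, which binds collagen and can nucleate hydroxyapatite, and which in health is found mainly in bone and mineralising cartilage. Its probe set was dim, with signals of 100.9, 75.9, 93.9 and 76.5 at 3 months and 27.5, 16.8, 66.9 and 107.9 at 6 months. At 15 months they were 64.5, 121.6, 286.3 and 417.4, and at 28 months 446.8, 330.2, 458.6 and 769.9. The 28 month arrays lay above all arrays at 3 and 6 months, while replicate 4 at 15 months fell within the range of the oldest rats. As with Spp1, the 15 month rats split, with replicates 3 and 4 the highest and replicate 1 below the range of the 3 month rats. The mean was 6.68 ± 0.18, 5.95 ± 0.87, 7.61 ± 1.10 and 8.95 ± 0.49 at the 4 ages, and the difference between 28 and 3 months was 2.27 (SE 0.50), or 4.84-fold. The size of this difference is uncertain, because the means at 3 and 6 months lay below the lowest mean tested and detection calls were not at hand.

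Bglap encodes osteocalcin, the Gla protein of mature osteoblasts. Its signals were 210.1, 148.9, 190.0 and 304.1 at 3 months, 38.6, 66.1, 65.9 and 180.9 at 6 months, 66.8, 49.5, 201.3 and 82.5 at 15 months and 232.6, 203.2, 114.1 and 269.9 at 28 months. The oldest and the youngest rats overlapped, and most of the lower values were those of the middle ages. The means were 7.80 ± 0.40, 6.53 ± 0.78, 6.70 ± 0.75 and 7.73 ± 0.50, and 28 against 3 months differed by -0.07 (SE 0.44). At 6 months the value was below that at 3 months in all 4 runs, with a difference of -1.27 (SE 0.44). Of the osteoblast products, Ibsp thus separated 28 from 3 months and Bglap did not; the difference between them was not tested.

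Alpl encodes tissue-nonspecific alkaline phosphatase, the enzyme that hydrolyses pyrophosphate. The brighter of its probe sets (J03572_i_at) had signals of 5475, 5642, 5303 and 10249 at 3 months, 8195, 5139, 5133 and 4644 at 6 months, 7573, 7083, 5692 and 4344 at 15 months and 9112, 6447, 7457 and 7867 at 28 months. The ages overlapped, and the highest value of all was that of a 3 month rat. Its mean was 12.65 ± 0.45, 12.46 ± 0.37, 12.56 ± 0.36 and 12.91 ± 0.21, and 28 against 3 months differed by 0.26 (SE 0.25). The other probe set (X16038exon_s_at), whose signals lay between 453.8 and 946.3, differed by 0.18 (SE 0.23). The pair tracked each other within ages, with a Pearson r of 0.926 and a Spearman rho of 0.871 between deviations from the age means over 16 arrays, a description of 2 probe sets read from the same hybridisations.

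Comp encodes cartilage oligomeric matrix protein, a thrombospondin that links collagen fibrils and is also made by arterial smooth muscle. Its signals were 85.3, 182.9, 121.4 and 198.9 at 3 months and 120.8, 126.9, 138.7 and 283.0 at 6 months. They were 191.9, 351.2, 373.9 and 556.3 at 15 months and 1329, 563.1, 891.7 and 1047 at 28 months. Every rat of 28 months lay above every rat of the other 3 ages, and each run was higher at 28 than at 15 months and higher at 15 than at 6 months. The mean was 7.29 ± 0.50, 7.44 ± 0.53, 8.50 ± 0.60 and 9.86 ± 0.51, and the difference between 28 and 3 months was 2.58 (SE 0.36), or 5.96-fold. The 3 month mean lay below the lowest mean tested, which makes the size of this difference uncertain as well.

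Postn encodes periostin, a matricellular protein that cross-links collagen and is induced in injured arteries and heart valves. Its signals were 1976, 2205, 2441 and 3656 at 3 months and 2373, 3024, 3124 and 5616 at 6 months. They were 3574, 4625, 6026 and 5155 at 15 months and 6612, 11290, 8286 and 7262 at 28 months. Like Comp, all rats of 28 months lay above all others. The means were 11.30 ± 0.39, 11.72 ± 0.53, 12.22 ± 0.32 and 13.00 ± 0.34, a difference of 1.71 (SE 0.27) between 28 and 3 months, or 3.26-fold. Postn was the 1 gene of the 7 that was higher at 6 than at 3 months in all 4 runs, by 0.42 (SE 0.27), and without replicate 4 at 6 months this difference was 0.17.

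The steps between successive ages differed among the genes as levels, though each step shares arrays with the next and the steps are given as a description. Between 6 and 3 months the differences ran from -1.27 (Bglap) to 0.42 (Postn). Between 15 and 6 months they ran from 0.08 (Alpl, X16038exon_s_at) to 1.66 (Ibsp), and between 28 and 15 months from 0.22 (the same probe set) to 1.37 (Comp). Only for Comp and Postn did all 4 arrays at 28 months lie above all 4 at 15 months, which held for 1.3% of all probe sets. For Spp1, with a difference of 1.01 (SE 0.50) between 28 and 15 months, and for Mgp, with 0.34 (SE 0.17), the value differed by the day of hybridisation. Within day 1 it was 1.97 for Spp1 and 0.63 for Mgp, and within day 2 it was 0.05 for both genes. Bglap was at 1.67 on day 1 and 0.40 on day 2, and Ibsp at 1.93 and 0.75. Without replicate 1 at 15 months the difference was 0.59 for Spp1, 0.18 for Mgp and 0.92 for Ibsp.

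**Figure D2:**
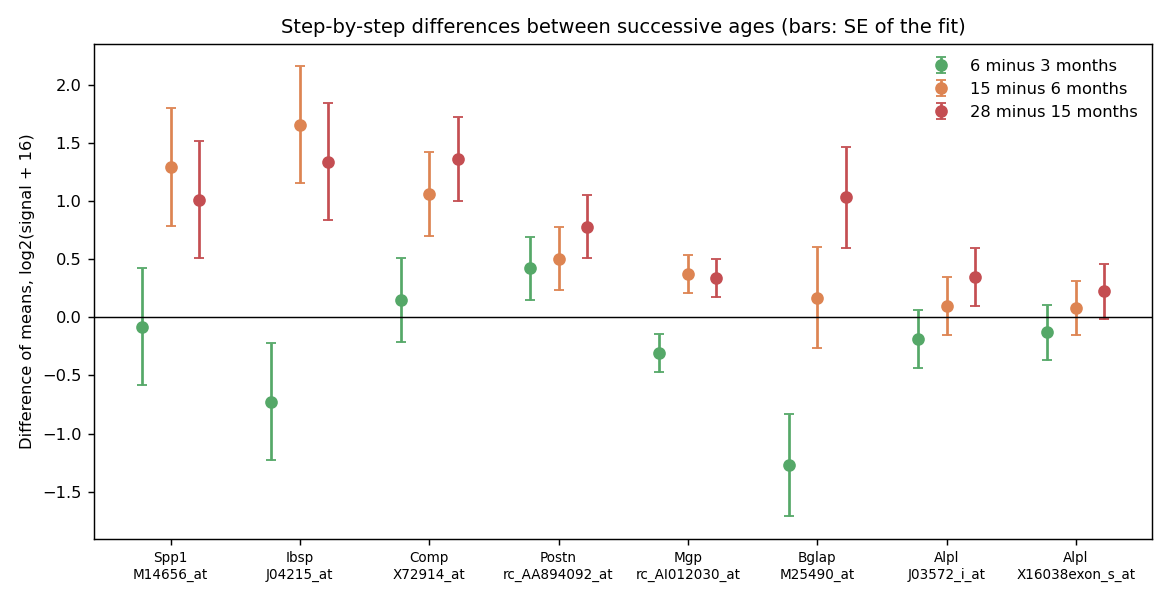
Difference of the mean log2(signal + 16) between successive ages (vertical) for the 8 probe sets (horizontal), with the standard error of the fit as bars. Spp1, Ibsp and Comp have their larger steps after 6 months, and Bglap is lower at 6 than at 3 months and higher again at 28 months.

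The comparison of 15 with 6 months asks whether the matrix genes already differed in middle age. Its means, and the exact permutation tests below, use no array of the contrast by which the genes were proposed. The limma fit takes its spread from all 16 arrays, those of 3 and 28 months included, and a fit of only the 8 arrays of these ages also called 0 of the 6 probe sets. None of the 6 probe sets tested passed the threshold (limma, adjusted p = 0.605 for Spp1, Comp, Mgp and Postn, and 0.902 and 0.916 for Alpl). Over all 5250 probe sets tested, 1 passed, or 0.019%, and it was Agt, angiotensinogen. At an unadjusted p under 0.05, 3 of the 6 passed (Spp1, Comp and Mgp, all higher at 15 months), against 7.49% of all probe sets tested. All 8 probe sets had a higher mean at 15 than at 6 months, as did 56.4% of all, and their median difference was 0.44 against 0.06 over all.

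Comp at 15 months averaged 8.50 ± 0.60 and at 6 months 7.44 ± 0.53, a difference of 1.06 (SE 0.36) that was positive in 4 of 4 runs. An exact 2-sided permutation test over the 4 against 4 rats gave p = 0.0571, where the smallest p the design allows is 0.0286. For Spp1 the difference was 1.30 (SE 0.50), positive in 4 of 4 runs (exact permutation p = 0.143). For Ibsp, which entered the fit only without the filter, it was 1.66 (SE 0.50), positive in 4 of 4 runs (exact permutation p = 0.0857, and limma adjusted p = 0.725 over 8740 probe sets). The rats of these ages overlapped for all 3 genes, so a higher level at 15 months was seen in each run but was not resolved from the spread between rats. The share of all probe sets higher in every run was not computed, and 56.4% of all had a higher mean at 15 months. Mgp differed by 0.38 (SE 0.17, exact permutation p = 0.143) and Postn by 0.50 (SE 0.27, exact permutation p = 0.171), each higher in 3 of 4 runs. Bglap differed by 0.17 (SE 0.44, exact permutation p = 0.657). Beside the fat score, which is described below, the differences between 15 and 6 months were smaller, at 0.44 for Spp1, 0.60 for Comp, 0.87 for Ibsp, 0.18 for Mgp and 0.23 for Postn.

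Each run, the arrays of 1 replicate number, held 1 rat of each age, and replicates 3 and 4 shared a time of hybridisation. With the run as a block, again 0 of the 6 probe sets passed at 15 against 6 months (limma, adjusted p = 0.264 for Spp1 and Comp, 0.297 for Mgp and 0.301 for Postn). At an unadjusted p under 0.05 the block gave 4 of the 6, all higher, against 15.4% of all probe sets tested. Within day 1 (replicates 1 and 2) the difference between 15 and 6 months was 1.18 for Spp1, 0.98 for Comp, 1.48 for Ibsp, 0.22 for Mgp and 0.60 for Postn. Within day 2 (replicates 3 and 4) these values were 1.41, 1.14, 1.84, 0.53 and 0.41 in the same order. Both days thus had the same sign for all 5 genes. The same held for Bglap (0.14 and 0.20) and for Alpl (0.17 and 0.03, and 0.14 and 0.02 on its other probe set). The share of all probe sets higher on both days was not computed.

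The pieces of aorta differed in fat cell transcripts, and the matrix genes moved with them. Fewer cells of a type and less RNA per cell cannot be told apart in whole tissue. A fat score, the average log2 value over 23 adipocyte and brown fat marker genes, was 13.31, 12.98, 13.13 and 12.12 on replicates 1 to 4 at 3 months and 13.40, 13.58, 12.94 and 12.02 at 6 months. It was 13.29, 13.05, 10.41 and 10.22 at 15 months and 11.39, 11.58, 11.80 and 10.24 at 28 months. All 28 month pieces were thus poorer in these transcripts than all 3 month pieces, and the 15 month pieces split by replicate in the same way as Spp1 and Ibsp. Adipocyte markers (16 of 20 on the array) summed to signals of 43771 to 112130 at 28 months and 121760 to 291270 at 3 months. Brown fat markers (9 of 13 on the array) summed to 14507 to 46935 at 28 months and 65870 to 135940 at 3 months.

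Within ages, the rats richer in fat transcripts had less of the matrix transcripts. Between deviations from the age means, over 16 arrays, Pearson r with the fat score was -0.866 for Spp1, -0.855 for Ibsp, -0.744 for Mgp, -0.716 for Bglap, -0.685 for Comp and -0.548 for Postn. The Spearman rho values were -0.850, -0.785, -0.676, -0.653, -0.712 and -0.474 in the same order. For Alpl r was 0.293 and 0.380 on its probe sets. Without replicates 3 and 4 at 15 months, r over the other 14 arrays was -0.824 for Spp1, -0.799 for Ibsp, -0.620 for Mgp, -0.765 for Bglap, -0.666 for Comp and -0.529 for Postn. These correlations are a description, since all signals of an array share 1 piece of tissue and 1 scaling.

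When the fat score entered the fit as a covariate, 28 against 3 months differed by 1.97 for Comp, 1.35 for Postn, 1.23 for Ibsp, 1.10 for Spp1 and 0.15 for Mgp. That is 76.6% of the value without it for Comp and 79.0% for Postn, against 54.0% for Ibsp, 49.2% for Spp1 and 37.8% for Mgp. The fat scores at 28 and 3 months did not overlap, so the values with the covariate rest on its fitted slope. The differences between these percentages were not tested. Bglap was at -0.81 and Alpl at 0.43 and 0.38 with the covariate. On day 2, replicates 3 and 4 at 28 months had fat scores of 11.80 and 10.24, against 10.41 and 10.22 at 15 months. Comp signals were 891.7 and 1047 at 28 months, against 373.9 and 556.3 at 15 months, and Postn signals were 8286 and 7262 at 28 months, against 6026 and 5155 at 15 months. Ibsp signals were 458.6 and 769.9 at 28 months, against 286.3 and 417.4 at 15 months. The ages did not overlap for these 3 genes, nor for Alpl, at 7457 and 7867 against 5692 and 4344 on its brighter probe set. Its other probe set had 796.8 and 698.6 against 567.2 and 453.8. Bglap overlapped, at 114.1 and 269.9 against 201.3 and 82.5. This describes 2 arrays per age, and the share of all probe sets that did not overlap was not computed. Replicate 4 of both ages had a high beta-actin ratio, given below. The part of the fat score and of RNA quality in these values was not tested. Spp1, at 20551 and 24864 in these rats of 28 months against 20877 and 22689 at 15 months, and Mgp, at 56753 and 51832 against 52992 and 52033, overlapped between the ages.

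**Figure D3:**
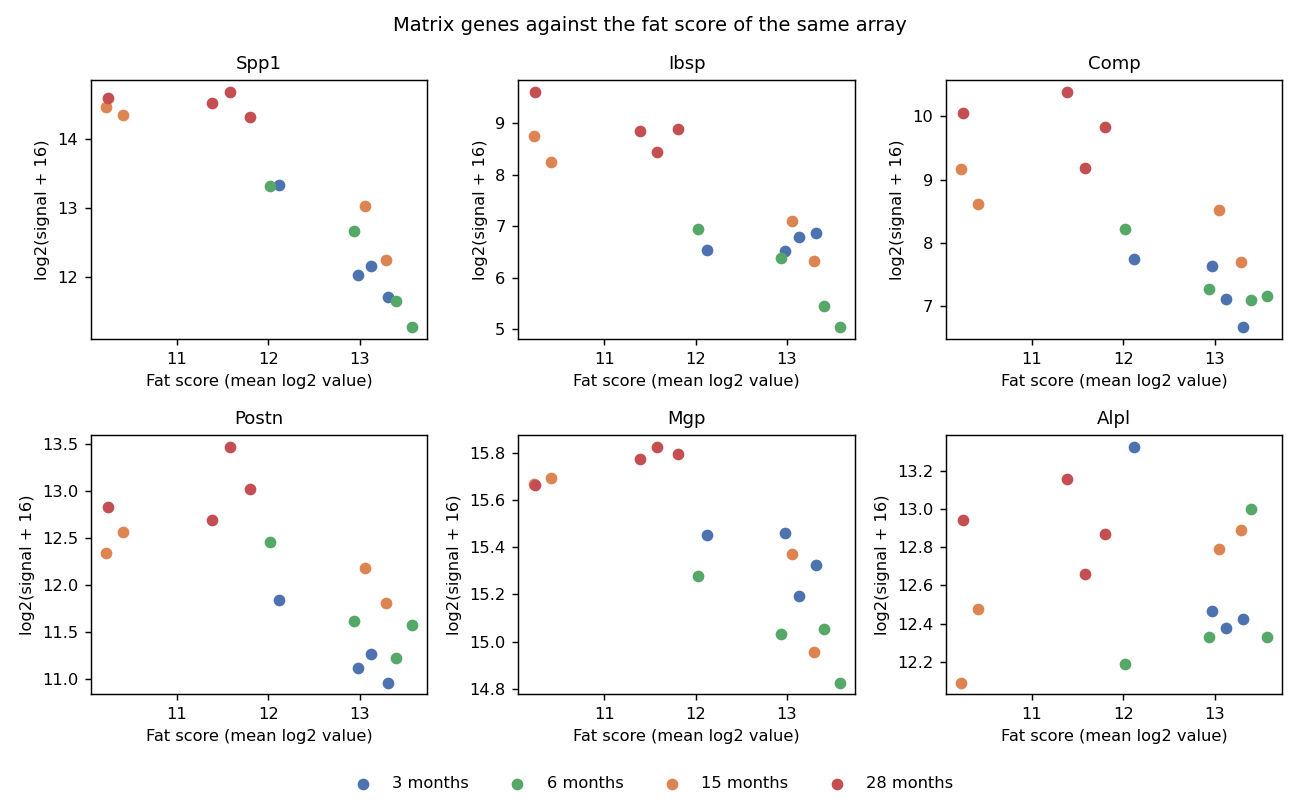
Level of 6 matrix genes (vertical, log2(signal + 16), the brighter probe set for Alpl) against the fat score of the same array (horizontal, mean log2 value of 23 fat marker genes), with 1 point per array and colours for the 4 ages. Spp1 and Ibsp run down as the fat score runs up (within-age r of -0.866 and -0.855), and Alpl shows no such slope. At 28 months 1 array has a fat score near that of 15 month arrays (10.24, against 10.41 and 10.22). It lies above both of these for every gene shown but Mgp.

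Markers of the other cell types were set beside the matrix genes. Of 11 smooth muscle markers 8 were on the array, all of them bright enough to be tested, with Acta2 averaging 16.30 at 28 months and 16.20 at 3 months. The mean level of these 8 was 14.68 ± 0.15 at 28 months and 14.15 ± 0.56 at 3 months, a difference of 0.53. Macrophages are another known source of osteopontin, and 8 of 17 of their markers were on the array, 5 of them bright enough to be tested. The mean level of the 5 differed by -0.25 between 28 and 3 months, which rested on Lgals3 (-1.23). Without it the mean of the other 4 differed by -0.0032, with Aif1 at 0.26, Cd14 at 0.12, Lyz2 at -0.20 and C1qb at -0.19. The 8 summed to signals of 5940 to 9928 at 28 months and 9300 to 13552 at 3 months. Fibroblast markers (7 of 10) averaged 13.48 ± 0.22 at 28 months and 13.34 ± 0.12 at 3 months. They were mixed: S100a4 (13.11 against 11.46), Lum, Pdgfra and Dcn were higher at 28 months, and Col1a2 (14.26 against 14.81), Col3a1 (14.72 against 15.23) and Col1a1 lower. Endothelial markers (5 of 9, 4 tested) averaged 8.41 ± 0.42 at 28 months and 8.86 ± 0.12 at 3 months. Of those tested, Kdr (7.37 against 8.38) and Flt1 (7.28 against 8.31) were lower at 28 months, and Pecam1 (10.07 against 9.94) and Nos3 (8.92 against 8.82) higher. Skeletal muscle markers (9 of 10, 5 tested) averaged 9.31 ± 0.33 at 28 months and 9.33 ± 0.24 at 3 months. The part of these cell types in the matrix gene levels was not tested.

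The markers of cartilage cells on the array were dim in every group. None of the 4 chondrocyte markers on the array (Acan, Col2a1, Col9a1 and Chad, of 8 listed) was bright enough to be tested. They summed to signals of 145 to 396.9 at 28 months and 166.6 to 268.9 at 3 months, although Comp was higher at 28 months. Chad averaged 6.97 ± 1.08 at 28 months and 6.01 ± 0.59 at 3 months, with signals of 20.8 to 270.8 over all arrays. Acan, Col2a1 and Col9a1 each averaged slightly less at 28 than at 3 months. Of the osteoblast markers 4 of 8 were on the array, namely Alpl, Ibsp, Bglap and Phex. Phex, an endopeptidase of bone, had signals between 7.72 and 111.7 over all arrays. Alpl was the 1 osteoblast marker bright enough to be tested.

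RNA quality and processing of the arrays moved with age in part. The beta-actin control (signal near the 3′ end over signal near the 5′ end) increases as RNA degrades. It stood at 3.82 for replicate 4 of 28 months and at 3.20 for replicate 4 of 15 months, and every other array had between 1.24 and 1.77. Without these 2 arrays the difference between 28 and 3 months was 2.51 for Comp, 2.21 for Spp1, 2.05 for Ibsp, 1.76 for Postn, 0.44 for Mgp, 0.25 and 0.19 for Alpl and -0.21 for Bglap. A note on the cRNA, of unstated meaning, belongs to 4 arrays, which are replicates 3 and 4 of 28 months and replicates 2 and 4 of 15 months. No day 1 array at 28 or 3 months carries it, and within day 1 the difference between 28 and 3 months was 2.64 for Comp, 2.74 for Spp1, 1.95 for Ibsp, 2.04 for Postn and 0.41 for Mgp. Within day 2 it was 2.52, 1.72, 2.60, 1.37 and 0.41 in the same order. Bglap had opposite signs on the days, at 0.27 and -0.41.

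The matrix genes other than Alpl varied together from rat to rat. These genes also followed the fat score within ages, as given above, and its part here was not tested. Between deviations from the age means, r of Spp1 was 0.824 with Mgp, 0.793 with Ibsp, 0.785 with Postn, 0.709 with Comp and 0.684 with Bglap, and -0.21 with Alpl (Spearman rho 0.718, 0.674, 0.791, 0.688, 0.682 and -0.30). Between Comp and Postn r was 0.443 (rho 0.441), between Postn and Ibsp 0.429, between Comp and Bglap 0.444 and between Mgp and Bglap 0.453. Between Ibsp and Alpl r was -0.507. Over 14 arrays without replicates 3 and 4 at 15 months, r of Spp1 with Mgp was 0.765, with Ibsp 0.729 and with Postn 0.794.

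The genes whose levels were most like each matrix gene were taken by Pearson r over the 16 arrays. Nearest to Spp1 were Fn1, fibronectin (0.986), Cpe, a carboxypeptidase (0.984), Gyg1, glycogenin (0.973), Sparcl1, a matrix protein of the SPARC family (0.972), and Vcam1, a leukocyte adhesion molecule (0.971). Nearest to Comp were Myl12b, a myosin light chain (0.950), Vcam1 (0.933 and 0.922 on its probe sets), Srgn, serglycin (0.921), and Slc6a6, the taurine transporter (0.921). Postn was nearest to Kiaa0040 (0.955), Vcam1 (0.936 on both of its probe sets), Uchl1, a ubiquitin hydrolase (0.933), and Gstp1, a glutathione transferase (0.918). Vcam1 was thus on the list of all 3 genes. Mgp was nearest to Rps16, a ribosomal protein (0.935), Glg1, a Golgi glycoprotein (0.933), the protease inhibitor Timp2 (0.931), Snd1 (0.928) and the smooth muscle gene Tagln (0.921). For Alpl the nearest genes had lower values, with Slc4a2, an anion exchanger, at 0.755, Pde4a at 0.693, Pias2 at 0.626, Hrk at 0.611 and Dcn, decorin, at 0.595.

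The same was done within ages, on deviations from the age means over the 16 arrays. Spp1 was again nearest to Cpe (0.971) and Fn1 (0.966), followed by Csrp2, a LIM protein of smooth muscle (0.964). Comp was nearest to Stx1a (0.914), Gpx7 (0.908) and Lmna (0.899), none of which was on its first list. Mgp was nearest to Glg1 (0.976), Rps16 (0.960) and Adcy5 (0.945), and Postn to Kcnmb1, a subunit of the smooth muscle calcium-activated potassium channel (0.874), Kiaa0040 (0.870) and Sfxn1 (0.856). Alpl was nearest to Shank1 (0.830), Pde4a (0.712) and Ptprs (0.712).

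Spp1 and Ibsp are neighbours in the rat genome, on chromosome 14. In GRCr8 the order of protein-coding genes there was Pkd2, Spp1, Mepe, Ibsp, Dmp1, Dspp and Sparcl1, with 1 gene, Mepe, between Spp1 and Ibsp. The array held 4 of these, Spp1, Ibsp, Dspp and Sparcl1. Sparcl1, singled out after its values were seen, averaged 14.16 ± 0.43, 14.01 ± 0.41, 14.72 ± 0.71 and 15.13 ± 0.07 in order of age. Its difference between 28 and 3 months was 0.97 (SE 0.30; limma adjusted p = 0.111, with the block 0.0234). Beside the fat score it was 0.32. Dspp, a dentine gene that stands between them, had signals of 6.29 to 73.4 on both of its probe sets, too dim to be tested. The order of the genes and their levels are stated together without a link between them.

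Beyond the 7 genes, 6 lists of genes of bone, cartilage and mineral held 120 genes, of which 64 were on the array and 40 were bright enough to be tested. None of the 40 passed at 28 against 3 months (limma, threshold of adjusted p 0.05), where 1.28% of all probe sets did, and 11 had an unadjusted p under 0.05, against 22.4% of all. Of the 40, 26 were higher and 14 lower, with a median difference of 0.20 against 0.06 over all probe sets tested. With the replicate block 6 passed, all higher at 28 months, when 12.2% of all probe sets did. They were Bmp3, Itga1, Bmp6, Itgb1, Fmod and Gas6. The lists, like the 7 genes, were chosen with earlier results of these data known. The p-values of list genes at 28 against 3 months, here and below, are therefore a description and not independent tests. With both the fat score and the block 0 of the 40 passed. At 15 against 6 months none of the 40 passed with or without the block, and none had an unadjusted p under 0.05 without it (29 higher, 11 lower, median 0.27).

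Among regulators of bone and cartilage formation, 8 of 25 were tested, 5 higher and 3 lower. Bmp6, a bone morphogenetic protein, averaged 10.43 ± 0.57 at 28 months and 9.31 ± 0.18 at 3 months, a difference of 1.12 (SE 0.27; limma adjusted p = 0.0573, with the block 0.0275). Its dimmer probe set was at 2.11 (limma adjusted p = 0.0656). Bmp3, a member of the family that antagonises bone formation, averaged 10.08 ± 0.41 at 28 months and 8.73 ± 0.24 at 3 months, a difference of 1.35 (SE 0.38; limma adjusted p = 0.0864, and 0.013 with the block), and its other probe set was at 1.82 (limma adjusted p = 0.077). Both thus passed with the block and not without it. With the fat score as a covariate Bmp6 was at 0.96 and Bmp3 at 0.52. Bmp4 was tested as well and was at 1.28 (SE 0.55; limma adjusted p = 0.193, with the block 0.0967). With the fat score it was at 1.54. Bmp2, Bmp7 and the BMP inhibitors Nog and Grem1 were too dim to be tested.

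Among receptors and partners of osteopontin, Comp and periostin, 11 of 26 were tested, 8 higher and 3 lower. The integrin chain Itga1, a collagen receptor, averaged 12.23 ± 0.21 at 28 months and 11.18 ± 0.25 at 3 months, a difference of 1.05 (SE 0.30; limma adjusted p = 0.0867, and 0.013 with the block). Its partner Itgb1 differed by 0.73 (SE 0.32; limma adjusted p = 0.196, and 0.0299 with the block). With the fat score these were 0.38 and 0.06. Cd44, the hyaluronan receptor that also binds osteopontin, was at 0.48 (limma adjusted p = 0.391), and Itgb3, part of the classic osteopontin receptor, at 0.09 (limma adjusted p = 0.908). Cd36, which is a fat marker as well, was at -1.54 (limma adjusted p = 0.233).

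**Figure D4:**
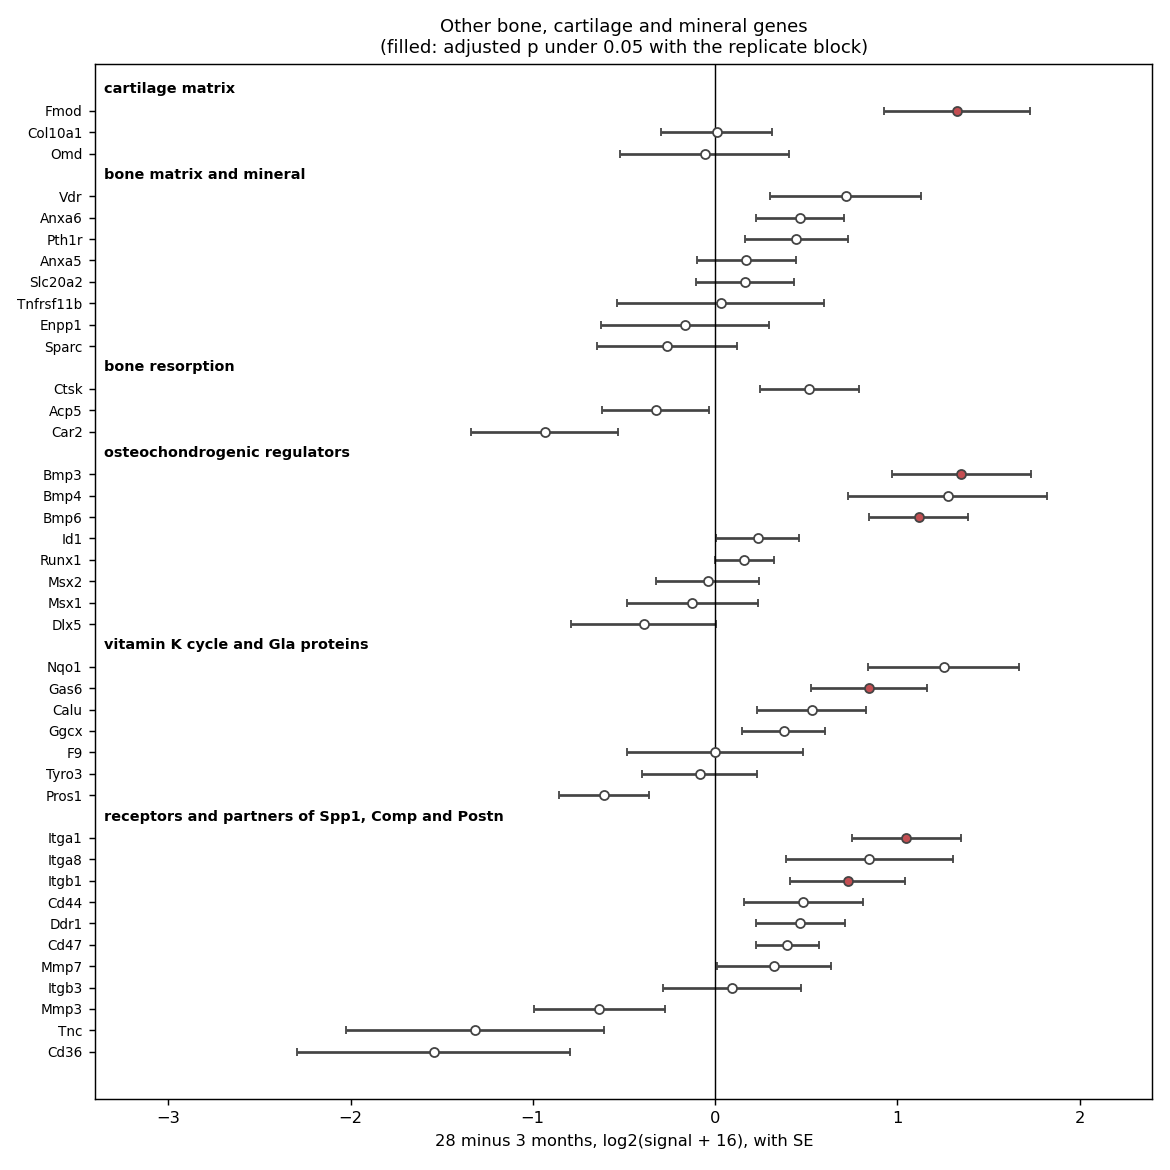
Difference between the mean at 28 and at 3 months (horizontal, log2(signal + 16), bars for the standard error) for the 40 other bone, cartilage and mineral genes that were tested (vertical), grouped by list. The 6 filled points (Fmod, Bmp3, Bmp6, Gas6, Itga1 and Itgb1) passed with the replicate block and all lie right of 0, and no gene passed without the block.

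The vitamin K cycle activates Mgp and Bglap by carboxylation. Of 15 genes listed for this cycle and for other carboxylated proteins and their partners, 7 were tested, 4 higher and 3 lower. Gas6, itself a carboxylated ligand, averaged 12.44 ± 0.15 at 28 months and 11.59 ± 0.39 at 3 months, a difference of 0.85 (SE 0.32; limma adjusted p = 0.161, and 0.0458 with the block; other probe set 0.61, adjusted p = 0.141). Beside the fat score it was at 0.17. Nqo1, a quinone reductase, was at 1.26 (limma adjusted p = 0.124, and 0.0622 with the block). The carboxylase Ggcx, on which the activity of Mgp depends, was at 0.38 (limma adjusted p = 0.337).

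Cartilage and bone matrix genes other than the 7 were mostly dim or did not pass. Of 22 cartilage matrix genes 3 were tested, 2 higher and 1 lower. Fmod, fibromodulin, averaged 12.46 ± 0.22 at 28 months and 11.14 ± 0.81 at 3 months, a difference of 1.33 (SE 0.40; limma adjusted p = 0.099, and 0.0404 with the block), while its second probe set was at 0.66 (limma adjusted p = 0.213). Beside the fat score it was at 0.62. Omd, osteomodulin, was at -0.06 (limma adjusted p = 0.957). Of 25 bone matrix and mineral genes 8 were tested, 6 higher and 2 lower, and none passed in either fit. Anxa6, an annexin of matrix vesicles, was at 0.47 (limma adjusted p = 0.264) and Vdr, the vitamin D receptor, at 0.72 (limma adjusted p = 0.314). Enpp1, which makes pyrophosphate, was at -0.17 (limma adjusted p = 0.858), and Tnfrsf11b, osteoprotegerin, at 0.03 (limma adjusted p = 0.981). Of 8 bone resorption genes 3 were tested, 1 higher and 2 lower, with Car2, carbonic anhydrase, at -0.93 (limma adjusted p = 0.194) and Ctsk, cathepsin K, at 0.52 (limma adjusted p = 0.265).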

How the data were processed

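RNA of 16 aortas was measured, 4 arrays per age. The authors deposited 1 intensity per probe set and array on a linear scale, made with MAS5 per the submitters' processing notes (its version and settings are not given there). The deposited intensities were already scaled, with a mean of 1000 on each array after trimming 2% at each end. The deposited array records, text of the kind "other", gave the chip lot, day and time of hybridisation, and station. Precision is limited by the number of arrays.

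Intensities were analysed as log2(signal + 16), which understates the changes of dim probe sets. The 59 control probe sets and those with a mean below the 40th percentile were left out, which left 5250. One limma fit (limma 3.58.1, R 4.3.3, lmFit and eBayes with a trend) held the 16 arrays, with 1 mean per age, 2-sided tests, Benjamini-Hochberg adjustment over 5250 probe sets and a threshold of 0.05. Ibsp and Bglap were read from the same fit on 8740 probe sets without the filter. Single probe sets were also compared by exact permutation tests. The fit was tested on simulated data. A gene of several probe sets was represented by the brightest, and a probe set was named only if it had a single symbol.

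The 7 genes and all gene lists were chosen with earlier results of these data known, and the difference between 28 and 3 months is therefore given for the 7 without a test. For the list genes the p-values of this difference are given as a description. Named were all 7 genes, up to 4 genes per list past the threshold (or the 2 of smallest p), and per tested gene the 5 with the highest r over the arrays and the 3 with the highest r within ages. The genes that passed only with the block, the other probe sets and the dim genes were named after their values were seen. So were Enpp1, Tnfrsf11b, Bmp4, Cd44, Itgb3, Cd36, Ggcx and Sparcl1.

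By the array records, the arrays of a replicate number, 1 per age, share chip lot, time of hybridisation and station, so the numbers pair the arrays. Replicates 1 and 2 each had a time of their own, while replicates 3 and 4 shared lot and time and differed only in station. Among 24 same-number pairs, deviations from the age means correlated with a median r of 0.171 (-0.32 to 0.628), against -0.034 over 72 pairs with different numbers. The run was used as a block in an alternative fit. Other alternatives changed the pseudocount, the filter, the normalization, the prior, the fat score or day as a term, the arrays used and each replicate left out; day 1 or day 2 alone, and no filter combined with the block or the fat score, were chosen after seeing the data. Promoter sequences and gene order are from RefSeq (GRCr8). The build behind the probe sets is not given in the labels.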

Additional observations from a re-analysis of the deposited data

Results flagged for a closer look

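Of 36 groups of 4 arrays examined (8 matrix probe sets and the fat score at 4 ages), 3 held 1 array whose gap to the nearest other, as a share of the range of the group, exceeded Dixon's 95% critical value for 4 samples. Chance gives about 1 group in 20. They came from 2 arrays, replicate 4 at 6 months and replicate 4 at 3 months, the second of them on both probe sets of Alpl.

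Comp at 6 months had a gap of 0.843 of the range, with replicate 4 the highest at 283.0, against 120.8, 126.9 and 138.7. Its fat score of 12.02 was also the lowest of the 6 month arrays. Alpl at 3 months had a gap of 0.906 on its brighter probe set, with replicate 4 at 10249, against 5303 to 5642, and of 0.859 on its other probe set, with replicate 4 at 946.3, against 547.6 to 591.8. The fat score of that array, 12.12, was the lowest of the 3 month arrays. The part of the fat score in these values was not tested. Without that array the difference of Alpl between 28 and 3 months on the brighter probe set was 0.485, the highest value with 1 array left out.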

How the results depend on the processing

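The number of matrix probe sets called at 15 against 6 months was 0 under every alternative (adjusted p from 0.151 to 1.00 over Spp1, Comp, Mgp and Postn), and that of list genes at 15 against 6 months was 0 as well. The count of all probe sets at 15 against 6 months, 1, was 0 without a filter, with quantile normalization, with the fat score and replicate block, without the 2 arrays of high beta-actin ratio, with only the 8 arrays of both ages, and on day 1 or day 2 alone, and ranged from 0 to 4 with 1 array left out (4 without replicate 4 at 6 months). The count at 28 against 3 months, 67, was 642 with the replicate block, 465 with the day as a term, 536 with only the 8 arrays, 691 on day 1, 0 on day 2, 43 without the 2 arrays of high beta-actin ratio, 37 with the fat score, 4 with the fat score and the block, 424 with no filter and the block and 27 with no filter and the fat score. With 1 array left out it ranged from 9 to 151: leaving out replicate 1, 2 or 3 of 3 months gave 10, 23 and 35, replicate 4 of 6 months gave 105, replicate 1 of 15 months gave 151, and replicates 1 to 4 of 28 months gave 9, 34, 34 and 44. The count of list genes at 28 against 3 months, 0, was 6 with the replicate block and on day 1, 5 with the day as a term and with only the 8 arrays, 4 with no filter and the block, and 1 with the filter at the 60th percentile, with quantile normalization and without the 2 arrays of high beta-actin ratio (0 to 3 with 1 array left out, 3 without replicate 1 at 15 months). The cause of these shifts was not tested.

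Of the matrix genes at 28 against 3 months, those below moved by more than the spread between replicates, all with the fat score. Spp1 was at 1.10 with the fat score and 1.35 with the score and the replicate block, Comp at 1.97 with the score, Mgp at 0.15 and 0.048, Bglap at -0.81 and -0.83, Ibsp at 1.23 and 1.39, and Alpl (X16038exon_s_at) at 0.53 with score and block. With 1 array left out the differences were 2.03 to 2.57 for Spp1, 2.37 to 2.80 for Comp, 0.35 to 0.44 for Mgp, 1.55 to 1.89 for Postn, 2.05 to 2.45 for Ibsp, -0.21 to 0.17 for Bglap, and 0.17 to 0.48 and 0.09 to 0.36 for Alpl. The replicate block alone leaves every difference of means as it is and changed no call of a matrix gene at 15 against 6 months. Signals near the background limit Ibsp, Bglap and, at 3 months, Comp. The array count limits the rest.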
